A study of Mus musculus with 6 samples.

Results

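The genes described here are 9 that encode signalling chains of the B cell receptor and surface proteins that tune it, out of 20591 gene symbols in an RNA-seq study of B cells that were sorted from the colon of mice. They were chosen by symbol: the signalling chains Cd79a and Cd79b, the activating coreceptors Cr2 and Cd81, the inhibitory coreceptors Cd22, Cd72 and Fcgr2b, and the B cell surface proteins Ms4a1 and Cd37. The mice received lenvatinib, an oral inhibitor of receptor tyrosine kinases that include the receptors for VEGF and FGF, or DMSO, the solvent used as control, with 3 libraries in each group. The labels give neither strain, age, dose, duration nor inflammatory state, although the series title names colitis, and they do not say whether each library came from 1 animal. The replicates are labelled as biological, but a p-value here covers no more than the variation among these 6 libraries, part of which may be technical.

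The B cell receptor is a membrane immunoglobulin that binds antigen, paired with a heterodimer of the Cd79a and Cd79b proteins that carries the signal into the cell. Each chain has an immunoreceptor tyrosine-based activation motif (ITAM), whose paired tyrosines are phosphorylated by Src-family kinases such as Lyn and then recruit the kinase Syk. The Cr2 and Cd81 proteins belong to a coreceptor complex that lowers the threshold for activation when antigen carries complement. The Cd22, Cd72 and Fcgr2b proteins carry immunoreceptor tyrosine-based inhibition motifs (ITIMs), which recruit the phosphatases encoded by Ptpn6 and Inpp5d. Immunoglobulin genes are not analysed here.

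The coding bases of these motifs are shown for the signalling chains, which carry ITAMs, and for the inhibitory coreceptors, which carry ITIMs. Cr2 and Cd81 were not searched. They come from the GENCODE annotation of build GRCm38, and the authors' files use build GRCm39, so the positions apply to GRCm38 only. An ITAM was searched as a pair of tyrosine codons, each followed at the third codon by leucine or isoleucine and set apart at the spacing usual for the motif, and 1 was found on the cytoplasmic side of each signalling chain. Tyrosine codons are in capitals, and bases are written 5′ to 3′ on the coding strand.
Cd79a codons 182 to 196, chr7:24901296-24901469, plus strand, exons 4 and 5: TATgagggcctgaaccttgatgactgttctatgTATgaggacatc
Cd79b codons 255 to 269, chr11:106311867-106312012, minus strand, exons 5 and 6: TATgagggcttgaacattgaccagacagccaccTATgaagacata
Both stretches have the same length and the same spacing of the tyrosine codons, and both are split over a pair of exons. An ITIM was searched as a tyrosine codon with isoleucine, leucine, valine or serine at the second codon before it and leucine, isoleucine or valine at the third codon after it. On the cytoplasmic side, 4 were found in Cd22, 2 in Cd72 and 1 in Fcgr2b.
Cd22 codons 781 to 786, chr7:30867494-30867511, minus strand, exon 12: gttagtTATgccatcttg
Cd22 codons 815 to 820, chr7:30867033-30867050, minus strand, exon 13: gtcactTACtcggtgata
Cd22 codons 841 to 846, chr7:30866600-30866617, minus strand, exon 14: atccatTACtcagagctg
Cd22 codons 861 to 866, chr7:30866540-30866557, minus strand, exon 14: gtagacTATgtgaccctc
Cd72 codons 5 to 10, chr4:43454498-43454515, minus strand, exon 1: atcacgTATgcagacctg
Cd72 codons 37 to 42, chr4:43454306-43454323, minus strand, exon 2: ctcaccTACgagaatgtg
Fcgr2b codons 317 to 322, chr1:170961071-170961088, minus strand, exon 8: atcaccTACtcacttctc
No ITAM was found in these 3 inhibitory genes. The pattern of an ITIM was also met once inside the ITAM of Cd79a.

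The values are FPKM (sequenced fragments relative to gene length and to library size, a level per length) that were scaled so that the typical gene is equal between libraries. The libraries held 26635279 to 31655500 reads, and each member was counted on 1217 to 32795 reads per library. Counting error at the lowest of these was 2.87 percent for Cd81, 1.52 percent for Fcgr2b and under 1 percent for the other 7. Replicates of a group differed by more than counting noise, with a chi-square per gene of 6.85 to 9.45, so no library was a copy of another. B cell genes outside the set were abundant, among them Pax5, which encodes the factor that maintains B cell identity, at 104 ± 3.71 (SD, n = 3) in DMSO and 85.4 ± 1.83 in lenvatinib libraries. Most tested markers of T cells, natural killer and innate lymphoid cells and epithelium were higher with lenvatinib, and most of macrophages and dendritic cells did not pass. Summed over the list, scaled FPKM ran from 48.7 to 53.8 in DMSO and from 142 to 148 in lenvatinib libraries for 12 T cell markers, of which 8 of 11 tested rose and Cd4 and Cd8b1 were among the 3 that did not pass. The sums were 32.7 to 39.6 and 170 to 174 for 11 markers of natural killer and innate lymphoid cells, with 9 of 9 tested higher. They were 14.7 to 15.9 and 68.3 to 73.9 for 13 of colon epithelium, also with 9 of 9 higher, and 65.9 to 68.6 and 78.1 to 87.8 for 16 of macrophages and dendritic cells, with 2 of 11 higher. Of these 4 lists, 1, 3, 10 and 6 markers in that order had DMSO means below 1, so some, among them epithelial genes, could be tested only because they were higher with lenvatinib. The T cell receptor gene Cd3e stood at 2.59 ± 0.227 and 15.8 ± 0.305 (SD, n = 3), and Ncr1 of natural killer cells and Krt20 of epithelium were at 0 in at least 1 DMSO library. Sums were 6.38 to 7.47 and 11.7 to 17.1 for 8 neutrophil markers, with Ly6g at 0 in every DMSO library, and 409 to 417 and 380 to 394 for 9 plasma cell markers, of which 2 fell and 1 rose among 8 tested. The part of these cells in the results was not tested. In bulk RNA, fewer B cells and less RNA per B cell cannot be told apart.

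The receptor genes were lower in the lenvatinib libraries when the typical gene was held equal, and for 5 of them the sign turned when other B lineage genes were held equal instead, as given further on. Of 9 members, all 9 were high enough to be tested, 7 fell and 0 rose at a limma adjusted p of 0.05, against 8.22 percent of all 9936 tested genes that fell, 10.5 percent that rose and 18.7 percent that passed in either direction. In all 9 every lenvatinib library lay below every DMSO library, which was so for 18.2 percent of tested genes. Without trend and robust moderation in limma 4 members passed, and Cd79b, Cd72 and Fcgr2b did not. The median log2 difference of the members was −0.18, between −0.41 for Cr2 and −0.06 for Cd37, and that of all tested genes was 0.0069. Together the members took 0.506 to 0.512 percent of the reads in DMSO and 0.432 to 0.441 percent in lenvatinib libraries.

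**Figure D1:**
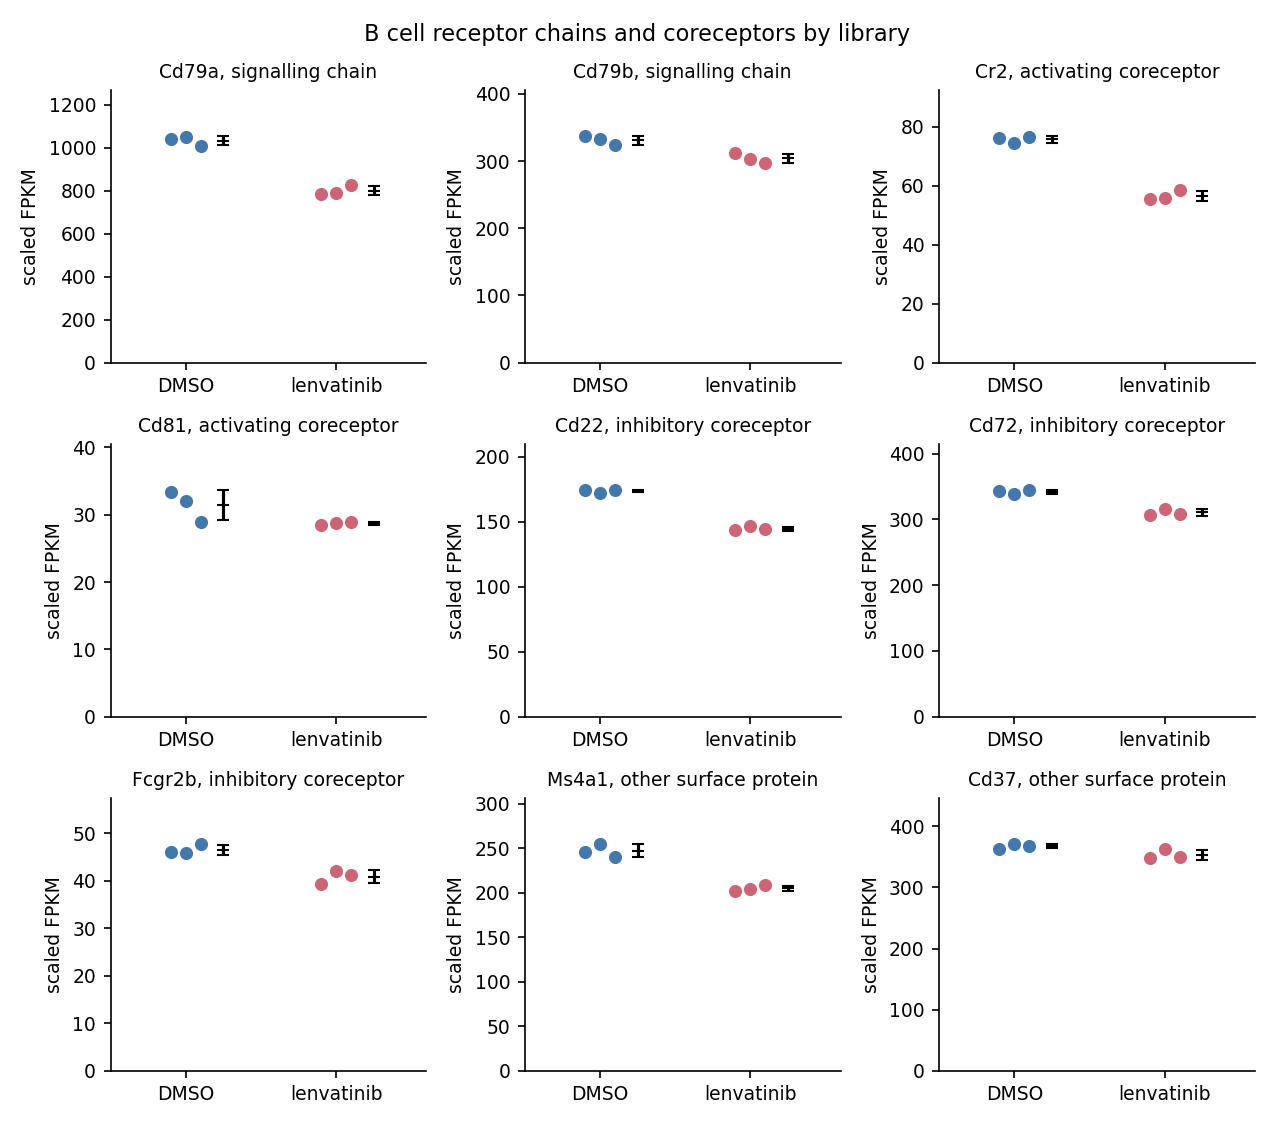
Scaled FPKM of the 9 receptor genes, each axis starting at 0, with 1 point per library, DMSO in blue and lenvatinib in red, and the mean with SD (n = 3) in black. The gap between the groups is wide for Cd79a and Cr2 and close to nothing for Cd81 and Cd37.

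Both signalling chains fell, Cd79b being among the genes whose sign turned with scaling to B lineage genes. On GRCm38, Cd79a lies at chr7:24897381-24902197 and Cd79b at chr11:106311341-106314762. Cd79a was the most abundant member, with scaled FPKM of 1040, 1052 and 1010 in the DMSO libraries and 786, 792 and 825 in the lenvatinib libraries. Its highest lenvatinib value thus lay well below its lowest DMSO value. The mean fell by 22.5 percent, from 1034 ± 21.6 to 801 ± 20.9 (SD, n = 3), a log2 difference of −0.37 (SE 0.03, limma adjusted p = 2.85e-05). Cd79b, the partner chain, stood at 337, 332 and 324 with DMSO and at 312, 303 and 298 with lenvatinib. The groups were close here, yet did not overlap, and the mean fell by 8.12 percent, a log2 difference of −0.12 (SE 0.03, limma adjusted p = 0.0172). That call was lost in 4 of the 6 fits that left out 1 library, those without DMSO replicate 1 or 2 or lenvatinib replicate 2 or 3, with adjusted p of 0.0534 to 0.0629.

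The ratio of the 2 chains did not overlap between the groups. The scaled FPKM of Cd79a divided by that of Cd79b was 3.09, 3.16 and 3.12 in DMSO and 2.52, 2.61 and 2.77 in lenvatinib libraries. Every lenvatinib library had the lower ratio, with means of 3.12 ± 0.0386 and 2.64 ± 0.124 (SD, n = 3). The log2 difference of the ratio was −0.25 (exact permutation test, two-sided, p = 0.1, adjusted p = 0.15 over 3 ratios). With 3 libraries against 3 the test cannot give a p below 0.1. A ratio within a library does not depend on the scaling, but it does not show which chain changed.

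The activating coreceptors, Cr2 at chr1:195136811-195176716 and Cd81 at chr7:143052739-143067934 on GRCm38, gave different results, a fall for Cr2 and no call for Cd81. Cr2, the complement receptor CD21, had scaled FPKM of 76.2, 74.3 and 76.6 with DMSO and 55.4, 55.8 and 58.5 with lenvatinib. Its mean fell by 25.3 percent, a log2 difference of −0.41 (SE 0.04, limma adjusted p = 8.93e-05), and in its position among all tested genes it stood at the 2.2 percentile of differences counted from the lowest. Cd81, a tetraspanin of the cell surface, was the least abundant member, at 33.4, 32 and 29 with DMSO and 28.5, 28.8 and 28.9 with lenvatinib. DMSO replicate 3 lay 0.214 percent above the highest lenvatinib library, less than the counting error of 2.87 percent. The log2 difference of Cd81 was −0.12 with a 95 percent interval from −0.25 to 0.005 (limma adjusted p = 0.171), so a fall like that of Cd79b and no fall both lie within it. The ratio of Cr2 to Cd81 was 2.28, 2.32 and 2.64 in DMSO and 1.94, 1.94 and 2.02 in lenvatinib libraries, a log2 difference of −0.29 (exact permutation p = 0.1, adjusted p = 0.15 over 3 ratios).

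All 3 inhibitory coreceptors fell, although with scaling to B lineage genes none passed and Cd72 at 0.07 and Fcgr2b at 0.02 turned sign. On GRCm38 they lie at chr7:30865402-30880342 for Cd22, chr4:43446462-43454628 for Cd72 and chr1:170958617-170976547 for Fcgr2b. Cd22, a sialic acid-binding lectin of B cells with 4 of the ITIM stretches printed above, stood at 174, 172 and 174 with DMSO and 144, 146 and 144 with lenvatinib. Its libraries lay close together, with SDs of 0.576 and 1.07 percent of the group means. The mean fell by 16.6 percent, a log2 difference of −0.26 (SE 0.03, limma adjusted p = 0.000165). Cd72, a lectin-like inhibitory receptor, stood at 343, 338 and 344 against 307, 316 and 308. The groups were separated by a narrower gap, and the mean fell by 9.16 percent, a log2 difference of −0.14 (SE 0.03, limma adjusted p = 0.00503, and 0.095 without trend and robust moderation). The gene Tesk1, at 14.7 to 17 scaled FPKM, overlaps Cd72 on the opposite strand, and the use of strand in counting is not given in the sources used here, so a small part of the Cd72 value is uncertain. Fcgr2b, the inhibitory receptor for the Fc part of IgG, stood at 46, 45.7 and 47.7 against 39.3, 42.1 and 41.1. Its mean fell by 12.2 percent, a log2 difference of −0.18 (SE 0.04, limma adjusted p = 0.0185), a call lost without DMSO replicate 3 (adjusted p = 0.0622) or lenvatinib replicate 1 (adjusted p = 0.0666). Fcgr2b is also expressed by macrophages, and its extracellular part closely resembles that of Fcgr3, so reads could be split between them. The macrophage genes Fcgr3 and Fcgr1 were low, at 1.48 ± 0.352 and 0.398 ± 0.135 (SD, n = 3) in DMSO and 1.99 ± 0.541 and 0.44 ± 0.153 in lenvatinib libraries.

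**Figure D2:**
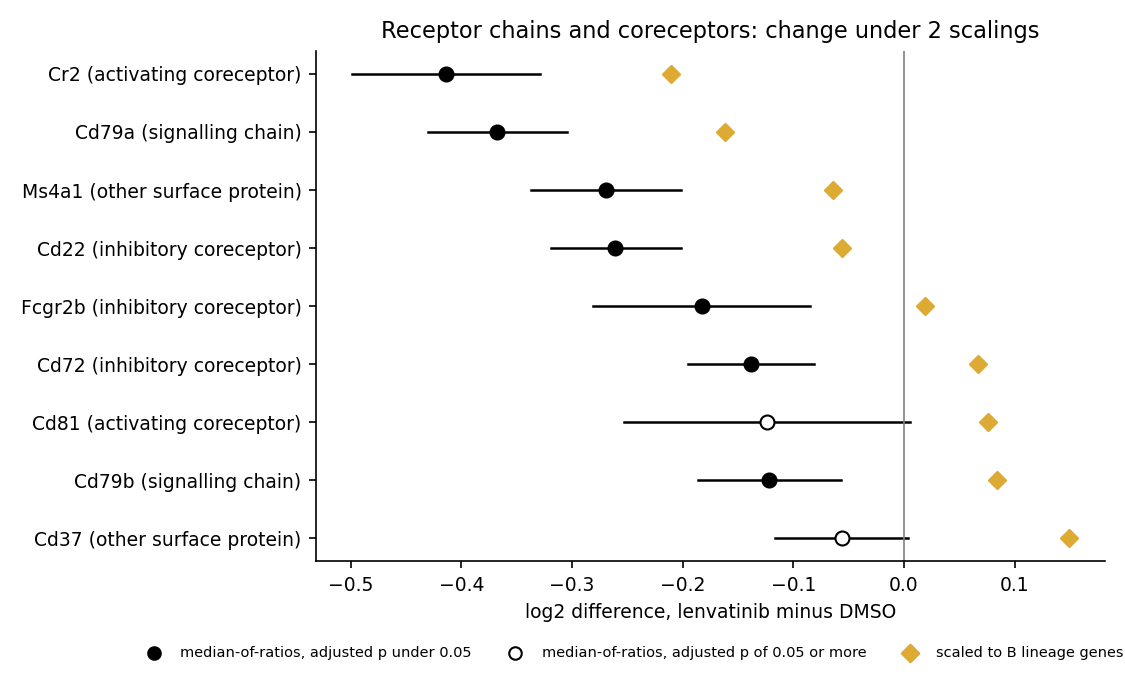
Log2 difference between lenvatinib and DMSO libraries for each receptor gene. Circles with 95 percent intervals are from the median-of-ratios scaling, filled where the limma adjusted p was under 0.05, and diamonds are from scaling to other B lineage genes, where Cr2 at −0.21 and Cd79a at −0.16 were the lowest and Cd37 at 0.15 the highest.

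Set against each other, activating and inhibitory coreceptors gave no separation of the groups. The mean log2(scaled FPKM + 1) of Cr2 and Cd81 minus that of Cd22, Cd72 and Fcgr2b was −1.46, −1.49 and −1.57 in the DMSO libraries and −1.57, −1.62 and −1.55 in the lenvatinib libraries. The groups overlapped, with means of −1.51 ± 0.06 and −1.58 ± 0.04 (SD, n = 3) and a difference of −0.07. That small difference was made of unlike parts. The log2 ratio of Cr2 to each of the inhibitory genes was lower in every lenvatinib library, by −0.16 against Cd22, −0.28 against Cd72 and −0.23 against Fcgr2b. The log2 ratio of Cd81 to Cd22 was higher in every lenvatinib library, by 0.13. Its highest DMSO value of −2.38 and lowest lenvatinib value of −2.35 lay closer together than the counting error of 2.87 percent for Cd81. The ratios of Cd81 to Cd72 and to Fcgr2b overlapped between groups, with differences of 0.01 and 0.06. These ratios are scores over the chosen genes and carry no test.

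**Figure D3:**
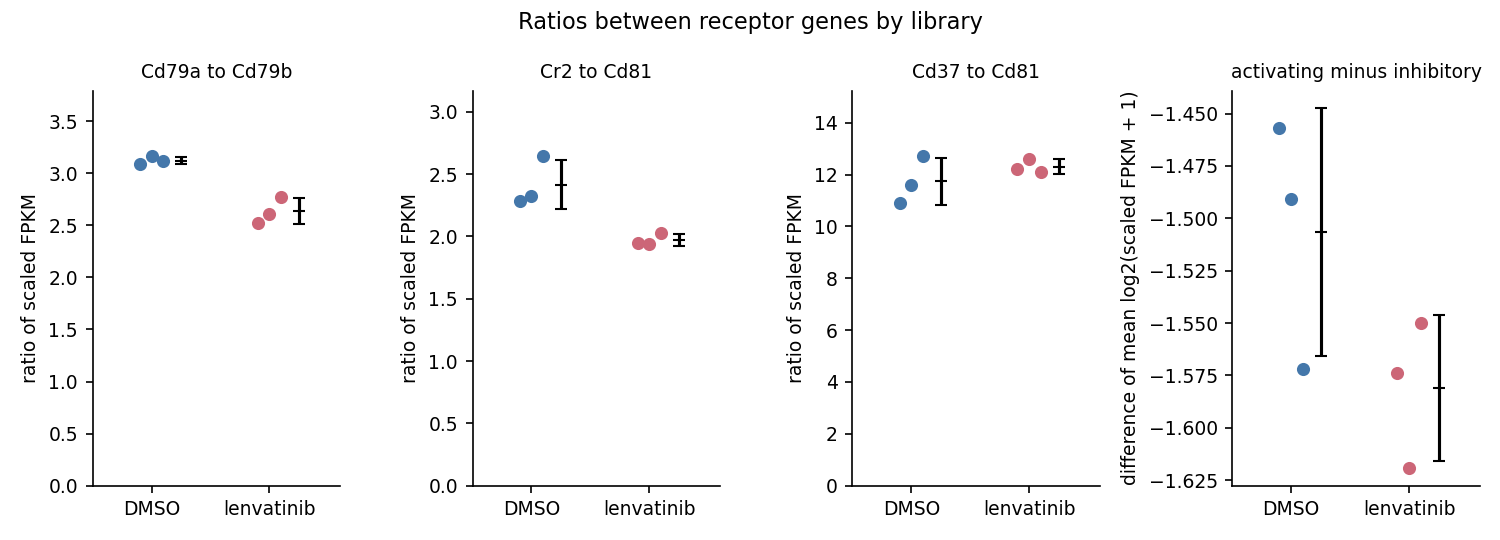
Ratios of scaled FPKM (axes starting at 0) for Cd79a to Cd79b, Cr2 to Cd81 and Cd37 to Cd81, and the activating minus inhibitory difference of mean log2 values (axis not starting at 0), with 1 point per library and the mean with SD in black. The first pair of ratios is lower in every lenvatinib library, and the other panels overlap between groups.

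Ms4a1 and Cd37 are B cell surface proteins that belong to neither side, at chr19:11249675-11266241 and chr7:45233632-45239115 on GRCm38. Ms4a1 encodes CD20, the target of therapeutic antibodies such as rituximab, and stood at 246, 255 and 241 with DMSO and 203, 204 and 209 with lenvatinib. The lenvatinib libraries were all lower, and the mean fell by 17.1 percent, a log2 difference of −0.27 (SE 0.03, limma adjusted p = 0.000308). Cd37, a leukocyte tetraspanin, stood at 364, 371 and 368 against 349, 363 and 349. Its lenvatinib replicate 2 lay within 0.226 percent of the lowest DMSO library, less than the counting error of 0.709 percent. The log2 difference was −0.06 with a 95 percent interval from −0.12 to 0.004 (limma adjusted p = 0.18). The ratio of Cd37 to Cd81, the other tetraspanin of the set, ran from 10.9 to 12.7 in DMSO and from 12.1 to 12.6 in lenvatinib libraries, a log2 difference of 0.07 (exact permutation p = 0.4, adjusted p = 0.4 over 3 ratios).

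By level per gene length the order was the same in both groups, from Cd79a through Cd37, Cd72, Cd79b, Ms4a1, Cd22, Cr2 and Fcgr2b to Cd81, and spanned 32.9-fold in DMSO. Neighbours in that order did not overlap in the DMSO libraries. In the lenvatinib libraries Cd72 at 307 to 316 and Cd79b at 298 to 312 overlapped. The largest falls were found at unlike levels, in Cd79a at 1034 and Cr2 at 75.7 scaled FPKM in DMSO. The least abundant members, Fcgr2b at 46.5 and Cd81 at 31.4, had smaller log2 differences of −0.18 and −0.12.

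Promoter sequences are shown for the members with the largest falls, Cr2 and Cd79a, and for Cd37, which had the smallest difference. RefSeq sequences of build GRCm38.p6, from 250 bases before to 50 after the start site, matched 7 of the 9 members. Capitals mark GGAAGT, the core bound by factors of the ETS family, and CAGGTG, an E-box bound by E2A, on either strand.
Cr2 promoter, chr1:195176670-195176969, minus strand: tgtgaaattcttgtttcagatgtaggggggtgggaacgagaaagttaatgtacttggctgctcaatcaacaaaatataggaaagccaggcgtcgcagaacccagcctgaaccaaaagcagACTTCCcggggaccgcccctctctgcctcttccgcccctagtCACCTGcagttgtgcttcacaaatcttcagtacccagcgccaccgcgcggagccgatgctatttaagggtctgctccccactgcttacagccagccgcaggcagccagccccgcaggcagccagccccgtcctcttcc
Cd79a promoter, chr7:24897247-24897546, plus strand: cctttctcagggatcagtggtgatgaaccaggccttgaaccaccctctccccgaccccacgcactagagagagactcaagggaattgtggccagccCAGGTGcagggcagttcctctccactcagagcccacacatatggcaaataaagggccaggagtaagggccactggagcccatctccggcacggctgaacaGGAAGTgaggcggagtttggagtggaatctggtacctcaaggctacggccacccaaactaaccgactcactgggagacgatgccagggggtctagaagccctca
Cd37 promoter, chr7:45238790-45239089, minus strand: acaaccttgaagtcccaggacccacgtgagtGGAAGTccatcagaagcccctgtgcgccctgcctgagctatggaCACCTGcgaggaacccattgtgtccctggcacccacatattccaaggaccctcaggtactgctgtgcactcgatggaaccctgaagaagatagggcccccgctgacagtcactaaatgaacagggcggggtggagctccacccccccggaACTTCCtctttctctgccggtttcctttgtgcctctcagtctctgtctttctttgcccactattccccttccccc
Counted from the RefSeq start site, the ETS core starts 54 bases before for Cd79a, 130 for Cr2 and 219 and 25 for Cd37. The E-box starts 154, 88 and 175 bases before. The GENCODE bounds given above for Cd79a and Cd37 begin further upstream than these start sites. The whole Cd37 window and the ETS core of Cd79a thus lie within those bounds, so their place before the start site depends on the annotation. The ETS core was present in 5 of 7 member promoters, in 24.1 percent of 27025 promoters and in 31.9 percent of the 7958 that belong to tested genes. The E-box was present in 4 of 7, 20 percent and 16.8 percent. For the B lineage factor EBF1 only the exact pattern of TCCC and GGGA with any pair of bases between was searched. It was met in 1 of 7, that of Cd22, in 0.914 percent of all and 0.917 percent of tested-gene promoters. Sites that depart from this pattern were not searched, so a promoter without a match, such as that of Cd79a, may still hold an EBF1 site. The octamer ATGCAAAT was met in 0 of 7, 1.75 percent and 1.38 percent. These matches describe the letters only, and the members that fell most share the ETS core and the E-box with Cd37.

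Genes that act next to the receptor were mostly lower as well. Of 18 tested kinases, adaptors and enzymes, 10 fell and 1 rose, with a median log2 difference of −0.16. In fits that left out 1 library, 8 or 9 fell. Pik3ap1, the adaptor that links the receptor complex to phosphoinositide 3-kinase, fell from 203 ± 6.15 to 157 ± 1.45 (limma adjusted p = 5.27e-05), Rasgrp3, an activator of Ras, from 51.5 ± 1.48 to 37.8 ± 1.18 (limma adjusted p = 0.000167) and the scaffold Bank1 from 158 ± 2.48 to 133 ± 1.57. Of the kinases of the list that act on ITAMs, Lyn and Syk fell, with log2 differences of −0.21 and −0.16. The Src-family kinases Fyn and Blk did not pass, at 9.15 ± 0.367 and 10.3 ± 0.302 for Fyn and 132 ± 1.28 and 137 ± 1.15 for Blk. The gene that rose was Pik3r1, a regulatory subunit of phosphoinositide 3-kinase, from 5.37 ± 0.0895 to 9.31 ± 0.965. Lyn, Syk, Fyn, Blk and Pik3r1 were chosen after their values were seen. With scaling to B lineage genes 2 of the 18 were lower and 5 higher, against 2.22 percent of all tested genes lower and 41.6 percent higher.

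Of 10 tested negative regulators inside the cell, 6 fell and 1 rose, with a median of −0.17. In fits that left out 1 library, 4 to 6 fell. The phosphatases that ITIMs recruit both fell, Inpp5d from 110 ± 2.87 to 90.2 ± 0.922 (limma adjusted p = 0.000348) and Ptpn6 from 123 ± 3.37 to 104 ± 1.92 (limma adjusted p = 0.000919). Ptpn22, a phosphatase of T and B cells, rose from 20.2 ± 0.744 to 27.4 ± 0.363, in libraries whose T cell markers were higher. The part of T cells in the Ptpn22 values was not tested. With scaling to B lineage genes 1 of the 10 was lower and 3 were higher, against 2.22 percent of all tested genes lower and 41.6 percent higher.

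Of 9 tested inhibitory receptors outside the set, 4 fell and 1 rose, with a median of −0.17. Btla, an inhibitory receptor that binds HVEM, fell from 118 ± 2.94 to 88.8 ± 1.99 (limma adjusted p = 5.27e-05), the adhesion receptor Pecam1 from 42.2 ± 0.566 to 32.8 ± 0.16 and Siglecg, a relative of Cd22, from 66.8 ± 1.68 to 55.8 ± 0.879. The gene that rose, named after its value was seen, was Lilrb4a, from 29.1 ± 1.24 to 35.7 ± 0.762, whose reads can be shared with a close copy. Of 10 tested activating or costimulating surface genes, 3 fell and 1 rose, with a median of −0.03. Ly9, a receptor of the SLAM family, fell from 38.6 ± 1.91 to 29.7 ± 1.8. Cd27, a receptor of the TNF family that T cells also express, rose from 1.14 ± 0.39 to 3.62 ± 0.491. The part of T cells in the Cd27 values was not tested. With scaling to B lineage genes 2 of the inhibitory receptors were lower and 2 higher, and 1 of the activating genes was lower and 6 were higher. Under that scaling 2.22 percent of all tested genes were lower and 41.6 percent higher.

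**Figure D4:**
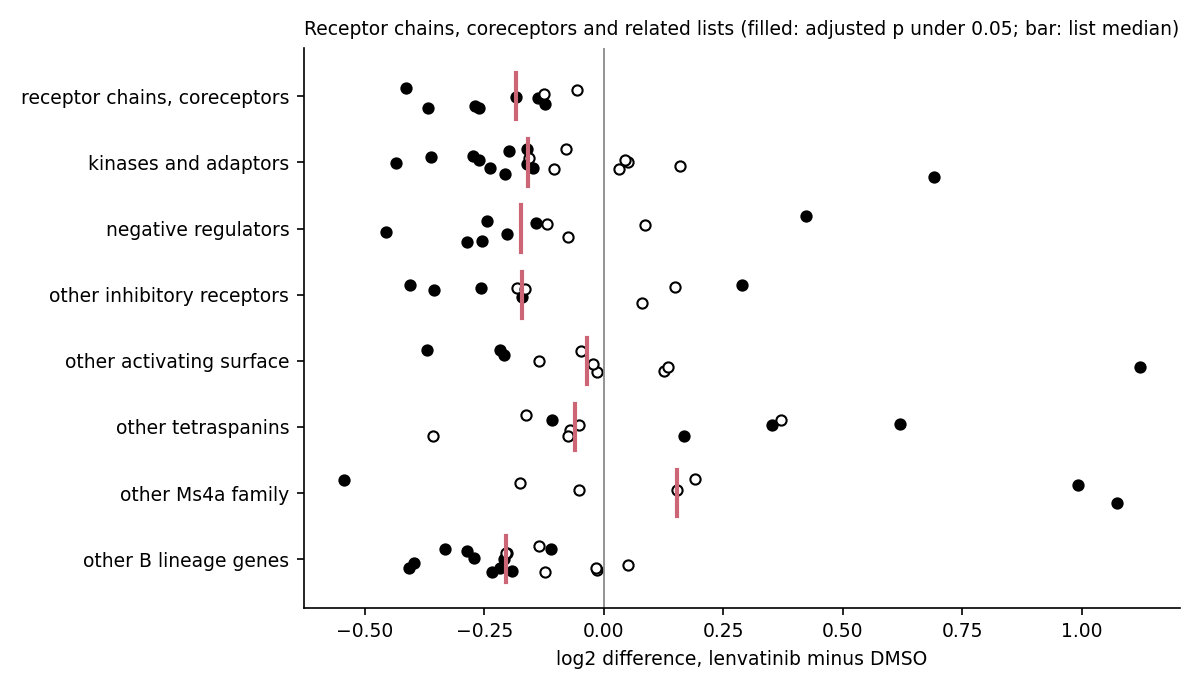
Log2 difference of each tested gene, lenvatinib minus DMSO, by list, filled where the limma adjusted p was under 0.05, with a bar at the list median. The receptor chains and coreceptors lie at or below −0.06, while the other lists hold genes on both sides of 0. Among the other B lineage genes only Blk, at 0.05 and not passing, lies above 0.

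Of 17 tested B lineage genes outside the set, 11 fell, 0 rose and 6 did not pass, with a median log2 difference of −0.20, against −0.18 for the members. In fits that left out 1 library, 8 to 10 of them fell. Spib, a transcription factor of B cells, fell from 143 ± 4.41 to 109 ± 4.1 (limma adjusted p = 0.000121) and Fcrla, an intracellular Fc receptor-like protein, from 104 ± 2.79 to 82.1 ± 3.98. When each library was scaled to these 17 genes, the median of all tested genes moved from 0.0069 to 0.19, and 2 members remained lower, Cr2 at −0.21 (limma adjusted p = 0.00218) and Cd79a at −0.16 (limma adjusted p = 0.00254). Cd37 at 0.15 (limma adjusted p = 0.00341) and Cd79b at 0.08 (limma adjusted p = 0.0414) were then higher, where 41.6 percent of all tested genes were higher and 2.22 percent lower. Cd79b and Cd37 thus still lay below the median of all genes. The other 5 lay between −0.06 and 0.08 and did not pass. Relative to other B lineage genes, the receptor chains went in opposite directions, Cd79a lower and Cd79b higher. Such a split was not particular to the chains. Of the 17 B lineage genes used for the scaling, 3 were themselves lower and 4 higher under it. Of the activating coreceptors, Cr2 was lower and Cd81, at 0.08, did not pass (limma adjusted p = 0.319).

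Among the genes whose pattern over the 6 libraries was most like the mean of the members were Rasgef1b, Serp1, Pecam1 and Shisa5, with Pearson r of 0.998 each. Rasgef1b stood at a mean of 183 scaled FPKM in DMSO and 142 in lenvatinib libraries, and Shisa5 at 489 and 385. The 6 libraries form 2 groups, so r takes in any difference between the groups, and 66 of 9927 genes reached an r of 0.99.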

How the data were processed

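RNA of sorted colon B cells was sequenced as 3 libraries from DMSO and 3 from lenvatinib mice. The authors deposited FPKM, and the submitters' processing notes name HTSeq and build GRCm39; the aligner, annotation and strand setting are not given in the sources used here. FPKM were scaled by median-of-ratios factors (genes with FPKM of at least 1 in all 6 libraries, factors 0.9933 to 1.0107), genes that reached a scaled FPKM of 1 in 3 or more libraries were kept, and log2(scaled FPKM + 1) was fitted in limma 3.58.1 under R 4.3.3 with trend and robust moderation and Benjamini-Hochberg adjustment over 9936 genes. Log2 differences are on that scale. Whole reads, and from them library totals, were recovered from the FPKM steps for 19707 of 19715 genes with a value, to a tolerance of 1e-06. Ratios were compared by exact permutation tests. Procedures were tested on simulated data.

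All members are named, with up to 3 genes of smallest p per related list and 5 of like pattern; others are said to be chosen after their values were seen. Genes that the rule chose but the text does not name are not reported here. Members and lists were chosen with earlier results of these data known. Positions and sequences are of GRCm38, from RefSeq and GENCODE. Alternatives are in the closing section.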

Additional observations from a re-analysis of the deposited data

How the results depend on the processing

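All 9 members kept their direction and side of the threshold with pseudocounts of 0.1 and 5, without a filter on low values, with a mean of at least 5, with FPKM as deposited, with scaling to the sum of FPKM and in limma-voom on the recovered reads, which was chosen after seeing the data. Cd37 passed with quantile normalization (−0.08, adjusted p = 0.0434). Scaling to B lineage genes left 2 members lower and 2 higher, with Cd79b at 0.084, Cd81 at 0.076, Cd72 at 0.067, Fcgr2b at 0.019 and Cd37 at 0.149, and 4360 genes called in all, 4139 of them higher. The cause was not tested. Without trend and robust moderation 4 members passed, and Cd79b (adjusted p = 0.145), Cd72 (0.095) and Fcgr2b (0.0628) did not; the cause was not tested. With a replicate block 7 members passed, as without it, and 1542 genes were called in all against 1856. The labels number the libraries, and deviations of same-numbered libraries correlated at −0.007 to 0.006. No pairing by number was thus detected, though 3 libraries per group cannot exclude it. The block changed no member's call.

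Leaving out 1 library gave 6 members lower each time and 1236 to 1418 genes called in all, with the lowest count without lenvatinib replicate 2. The share of higher calls was 56 percent, and 62.1 percent with FPKM as deposited, 46.8 percent with the sum of FPKM and 49.5 percent with quantile normalization. The activating minus inhibitory difference ran from −0.11 to −0.05 when 1 library was left out. For Cd81 and Cd37 the gap between the groups was smaller than the counting error at the lowest depth.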

Other observations

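Most tested relatives of Ms4a1 and of the tetraspanins Cd81 and Cd37 did not pass. Of 7 tested genes of the Ms4a family 1 fell, 2 rose and 4 did not pass, with a median log2 difference of 0.15. Ms4a4c fell from 61 ± 0.761 to 41.5 ± 2 (SD, n = 3, limma adjusted p = 4.83e-05), and Ms4a4b rose from 4.97 ± 0.389 to 11.6 ± 1.15 (limma adjusted p = 5.51e-05). The reads of these close relatives can be split by counting, so their values are uncertain. Ms4a8a was at 0.0992 ± 0.0897 with DMSO and 1.18 ± 0.149 with lenvatinib, so it could be tested only because it was higher there. Of 10 tested tetraspanins 1 fell, 3 rose and 6 did not pass, with a median of −0.06. Cd63, a tetraspanin of late endosomes, rose from 1.97 ± 0.0404 to 3.58 ± 0.431 (limma adjusted p = 0.00322), Cd9 from 13.3 ± 0.464 to 17.3 ± 1.3 (limma adjusted p = 0.00661) and Cd82 from 70.7 ± 2.32 to 79.5 ± 3.12 (limma adjusted p = 0.0229). The Cd82 call was lost without DMSO replicate 2 or lenvatinib replicate 1 or 2, with adjusted p of 0.0606 to 0.0798. Tspan13, named for being the 1 that fell, went from 123 ± 2.19 to 114 ± 2.03 (limma adjusted p = 0.0364). That call was lost whichever of the 6 libraries was left out, and also with FPKM as deposited. The lenvatinib libraries also had higher levels of epithelial, T cell and innate lymphoid markers, whose part in these values was not tested.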
